A study of Homo sapiens with 2 samples.

Results

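Methylation was examined here at the start regions of 8 genes that encode secreted antagonists of Wnt signalling. They are SFRP1, SFRP2, SFRP4 and SFRP5 (secreted frizzled-related proteins), WIF1 (Wnt inhibitory factor) and DKK1, DKK2 and DKK3 (Dickkopf proteins). The genes were chosen by name, with earlier results of these data known, and they are 8 of 19756 protein-coding genes on the autosomes and the X chromosome. All 8 had at least 5 measured sites and are among the 18354 genes that did. The region of a gene ran from 1500 bp upstream to 1000 bp downstream of every protein-coding transcript start, and is called its start window.

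Wnt proteins are secreted ligands that bind frizzled receptors and the co-receptors LRP5 and LRP6 and thereby stabilise beta-catenin. SFRP proteins and WIF1 bind the Wnt ligands outside the cell, whereas DKK1 and DKK2 bind LRP5 and LRP6, and DKK3 is the divergent member of the Dickkopf family. Dense methylation of CpG dinucleotides around the start of several of these genes is a well known feature of many tumours, acute myeloid leukemia (AML) among them, and methylation at a gene's start is commonly associated with low transcription.

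The study compared SKNO-1, an AML line with the t(8;21) fusion RUNX1-RUNX1T1 (also named AML1-ETO), with SKNO1-siAE, made from SKNO-1 by infection with the lentiviral vector pRRLcPPT.hPGK encoding siAGF1 oligonucleotides against the fusion transcript. Both lines were kept in the same medium. Each line was measured in 1 library of MCC-Seq, in which probes capture bisulfite-converted DNA, so that a cytosine still read as cytosine was methylated. SKNO1-siAE is 1 derived line, and a line carrying a control vector was not analysed here, so silencing of the fusion, the vector and separate passage cannot be told apart. Expression was not measured in these files, so neither the level of the fusion transcript nor the identity of the cells could be checked from markers.

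Summed over sites, so that a read counts once at each CpG it covers, the SKNO-1 library had 83620068 read counts over 4713346 CpG cytosines and the SKNO1-siAE library 82164216 over 4694016. A site is 1 CpG cytosine on 1 strand, its level is the fraction of its reads that were methylated, and only the 3168726 sites read at least 5 times in each library were compared. The start windows of the 8 genes contained 2410 CpG cytosines, of which 929 (38.5%) were such shared sites. The median depth of a gene's sites lay between 7 and 20 reads in SKNO-1 and between 8 and 25 reads in SKNO1-siAE, so a single site is imprecise. There were no replicates, and every test below compares 2 libraries, not 2 conditions. Differences are given throughout as SKNO-1 minus SKNO1-siAE.

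Shown first are the stretches with the longest runs of differing sites in 4 of the genes. With them are 3 stretches outside exons, in genes taken by their window difference and chosen there by their number of shared sites. All are written 5′ to 3′ on the strand of the gene, which is the - strand for each of them, from the GRCh37 (hg19) assembly. Capitals mark CpG dinucleotides of which at least 1 cytosine was measured in both libraries. The first 4 were chosen after their values were seen, as the longest run of differing sites in the gene without the untranslated exon part. They are the first coding exon of SFRP5 at chr10:99531234-99531533, the first coding exon and adjoining intron of SFRP4 at chr7:37955618-37955820, the first coding exon of SFRP2 at chr4:154709740-154709839 and the region upstream of DKK2 at chr4:107958431-107958577.
SFRP5 coding exon: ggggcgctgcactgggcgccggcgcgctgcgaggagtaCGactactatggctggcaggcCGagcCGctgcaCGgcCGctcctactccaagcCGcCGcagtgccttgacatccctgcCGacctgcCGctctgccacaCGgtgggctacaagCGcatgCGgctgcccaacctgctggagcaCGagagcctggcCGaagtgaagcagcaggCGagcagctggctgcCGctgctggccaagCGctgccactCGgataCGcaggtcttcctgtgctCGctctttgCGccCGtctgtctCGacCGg
SFRP4 coding exon and intron: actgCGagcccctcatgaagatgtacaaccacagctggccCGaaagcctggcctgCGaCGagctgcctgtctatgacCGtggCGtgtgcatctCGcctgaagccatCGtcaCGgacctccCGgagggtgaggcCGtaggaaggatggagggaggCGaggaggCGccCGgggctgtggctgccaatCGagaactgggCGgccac
SFRP2 coding exon: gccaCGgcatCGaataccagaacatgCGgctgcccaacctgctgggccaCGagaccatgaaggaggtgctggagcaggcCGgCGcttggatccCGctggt
DKK2 upstream: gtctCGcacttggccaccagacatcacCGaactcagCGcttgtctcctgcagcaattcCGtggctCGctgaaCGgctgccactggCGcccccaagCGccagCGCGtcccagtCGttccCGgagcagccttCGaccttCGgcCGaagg

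In these 4 stretches nearly every measured site was lower in SKNO-1 by at least 0.2. The SFRP5 stretch has 30 CpG dinucleotides, 24 of them measured, and its 46 sites averaged 0.122 in SKNO-1 against 0.928 in SKNO1-siAE. In the SFRP4 stretch, all 16 CpG dinucleotides were measured, and the mean level of 29 sites was 0.00216 against 0.833. The SFRP2 stretch has 7 CpG dinucleotides, all measured, with a mean level of 0.0210 against 0.880 over 11 sites. The DKK2 stretch has 15, all measured, with 0.0192 against 0.348 over 26 sites.

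The other 3 stretches are those of at most 300 bases with the most shared sites in SFRP4, SFRP5 and DKK3 among stretches that touch no exon of any annotated transcript, and they show parts of these windows with similar means in both libraries. In DKK3, exons of other transcripts cover much of the region upstream of the canonical start. They lie at chr7:37956420-37956719, directly upstream of the SFRP4 start, at chr10:99532338-99532637, upstream of SFRP5, and at chr11:12029617-12029916, in an intron of DKK3.
SFRP4 upstream: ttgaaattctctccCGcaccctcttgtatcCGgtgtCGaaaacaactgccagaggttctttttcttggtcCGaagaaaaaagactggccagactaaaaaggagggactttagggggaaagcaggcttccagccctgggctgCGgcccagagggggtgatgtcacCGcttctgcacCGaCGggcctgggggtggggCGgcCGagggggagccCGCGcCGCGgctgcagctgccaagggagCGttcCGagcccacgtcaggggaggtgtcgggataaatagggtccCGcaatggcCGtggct
SFRP5 upstream: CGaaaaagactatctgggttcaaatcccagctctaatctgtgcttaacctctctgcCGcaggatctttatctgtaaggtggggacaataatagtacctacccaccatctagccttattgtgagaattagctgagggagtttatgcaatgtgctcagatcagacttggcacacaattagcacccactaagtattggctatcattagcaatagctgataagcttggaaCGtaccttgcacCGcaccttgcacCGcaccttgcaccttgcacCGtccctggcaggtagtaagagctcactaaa
DKK3 intron: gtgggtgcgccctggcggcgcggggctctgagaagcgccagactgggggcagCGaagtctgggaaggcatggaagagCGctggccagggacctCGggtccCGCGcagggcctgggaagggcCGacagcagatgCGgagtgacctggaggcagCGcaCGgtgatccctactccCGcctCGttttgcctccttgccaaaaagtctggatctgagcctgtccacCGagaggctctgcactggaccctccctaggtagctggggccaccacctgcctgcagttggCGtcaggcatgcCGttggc

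The SFRP4 upstream stretch was unmethylated in both libraries, averaging 0 in SKNO-1 against 0.0156 in SKNO1-siAE over 24 sites. The SFRP5 upstream stretch averaged 0.819 and 0.859 over 12 sites, but it was uneven. Its 8 sites nearer the start had 0.959 and 0.977, and the 4 sites farther upstream had 0.539 and 0.622. Of these 4, 1 was called lower in SKNO-1 by the Fisher's exact test described below. The DKK3 intron stretch had intermediate means, 0.645 and 0.674 over 20 sites, but within it the libraries differed both ways, with 0.625 against 0.412 over the 8 sites from 300 to 399 bp downstream and 0.286 against 1 over the last 2. SFRP4 and SFRP5 thus have, within the same window, a stretch of similar mean level in both libraries and a stretch where nearly all sites differed.

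Over the whole windows, all 8 genes had a lower mean level in SKNO-1 than in SKNO1-siAE, with differences from -0.557 to -0.0184, but only SFRP5 and SFRP4 differed by at least 0.2 in size. The sign held under every alternative for SFRP5, SFRP4 and DKK1 alone. It turned for DKK3 with the upstream 1500 bp only (0.0393), with at least 10 reads (0.0130) and with merged strands (0.00310), for SFRP1 with the canonical start only (0.00174), for DKK2 with 500 bp on each side (0.00797), and for SFRP2 (0.00510) and WIF1 (0.0437) with at least 10 reads. Of all measured genes, 14.1% were lower in SKNO-1 by at least 0.2 and 2.82% were higher by as much, against 2 and 0 of the 8. At a difference of at least 0.1 the share of all genes that were lower was 25.3%, against 6 of the 8, and at 0.3 it was 8.57%, against 1 of the 8. The median difference was -0.117 over the 8 genes and -0.0133 over all measured genes. It depended on the sites used, being -0.0297 with at least 10 reads per site and -0.0668 with the upstream 1500 bp only, where all measured genes had -0.0128 and -0.0110. The median level of the 8 genes was 0.734 in SKNO-1 against 0.848 in SKNO1-siAE, above the medians of all genes (0.272 and 0.367). The mean level was at least 0.5 in both libraries in 5 of the 8 genes (SFRP1, SFRP2, DKK1, DKK3 and WIF1), and this was so in 33.4% of all measured genes. In SKNO-1 these 5 genes ranked between 78.2% (DKK1) and 87.0% (DKK3) of all measured genes by level, and in SKNO1-siAE between 72.6% (SFRP1) and 89.0% (WIF1). They were picked by level, so a high rank follows from that choice. SFRP5, DKK2 and SFRP4 ranked at 57.3%, 26.1% and 18.3% in SKNO-1, and at 91.7%, 37.0% and 45.8% in SKNO1-siAE.

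**Figure D1:**
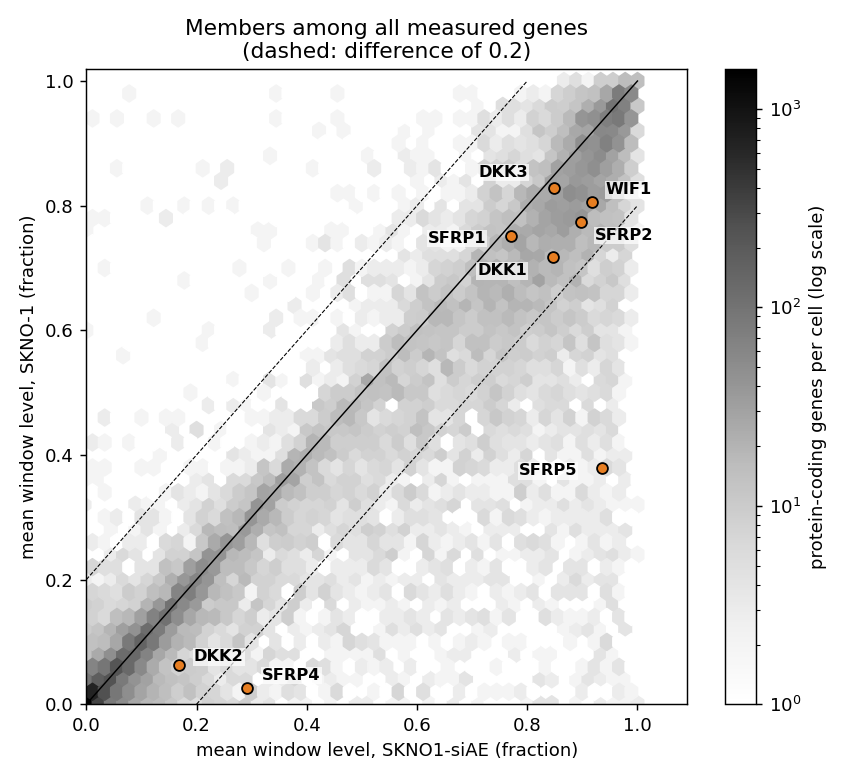
Mean window level (fraction of reads methylated) in SKNO1-siAE on the x axis and in SKNO-1 on the y axis, for the 8 secreted Wnt antagonist genes (orange points) over the density of all 18354 measured protein-coding genes (grey, log scale), with dashed lines at a difference of 0.2. SFRP5 (0.379 against 0.935) and SFRP4 (0.0268 against 0.292) lie beyond the lower dashed line, and the other 6 genes lie between the lines.

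Only SFRP1 and SFRP2 had a CpG-rich window, that is a GC content of at least 55% and an observed to expected CpG ratio of at least 0.6 over the whole window. Both were at 0.5 or more in both libraries, against 27.3% of the 2877 genes with a CpG-rich window. Neither was lower in SKNO-1 by at least 0.2, against 13.6% of these genes. The windows of SFRP4, DKK2 and WIF1 include a separate stretch at distant starts with at most 3 shared sites. The CpG class of these genes therefore does not describe the canonical start alone.

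At the level of single sites, 196 of the 929 sites (21.1%) were called lower in SKNO-1 and 30 (3.23%) higher, by a 2-sided Fisher's exact test on the reads with Benjamini-Hochberg adjustment over all shared sites (adjusted p under 0.05, levels at least 0.2 apart). Over all shared sites of the libraries 11.7% were called lower and 4.4% higher. The calls were unevenly spread: 158 of the 196 lay in SFRP5, SFRP4 and SFRP2, and in the other 5 genes 38 of 490 sites (7.76%) were called lower. At 84 sites (9.04%) the level was under 0.1 in SKNO-1 and over 0.9 in SKNO1-siAE, and at 2 sites (0.215%) the opposite was found, against 4.02% and 1.13% of all shared sites. Neighbouring sites share reads, so these sites are not independent of each other. The test also takes each read as independent, which reads without molecular identifiers may not be, so its p-values may be too small.

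**Figure D2:**
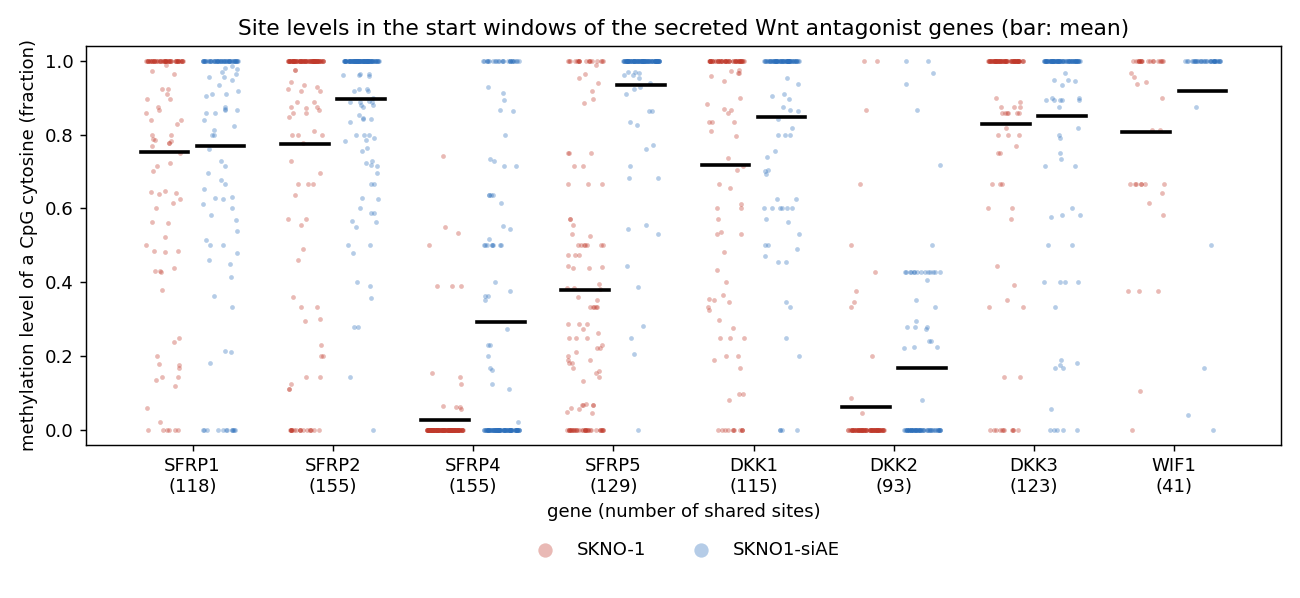
Methylation level (fraction) of every shared site in the start windows of the 8 genes, SKNO-1 in red and SKNO1-siAE in blue, with a black bar at the mean and the number of sites under each gene. In SFRP5 most sites lie in the lower part of the axis in SKNO-1 and at the top in SKNO1-siAE (means 0.379 and 0.935), whereas SFRP1 and DKK3 have their means close together.

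SFRP5 (ENSG00000120057, chromosome 10, - strand, start at 99531756), which encodes a frizzled-related protein that binds Wnt ligands, had the largest difference of the 8 genes. Its 129 sites averaged 0.379 in SKNO-1 against 0.935 in SKNO1-siAE. At these sites, methylated reads made up 1172 of 2508 in SKNO-1 (0.467, 95% Wilson interval 0.448 to 0.487) against 2316 of 2526 in SKNO1-siAE (0.917, interval 0.905 to 0.927). These intervals cover counting error only, and since reads without molecular identifiers and neighbouring sites are not independent, they are too narrow. The difference of -0.557 was undercut or equalled by 2.62% of all measured genes. By Fisher's exact test, 80 sites were called lower in SKNO-1 and 0 higher, and 108 of the 129 were lower in level by any amount.

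Most of the differing sites of SFRP5 lay downstream of the start. In the coding part of the first exon, 77 sites averaged 0.235 in SKNO-1 against 0.934 in SKNO1-siAE, and 64 of them were called lower. The untranslated part of that exon had 0.436 against 0.960 over 25 sites, and the intron that follows had 0.797 against 0.949 over 11 sites, with 1 call. One unbroken run of 52 sites, from 138 to 517 bp downstream of the start, held 49 called sites, each site differing by at least 0.2. Here as in the other genes, the sites of a run were picked for their difference, so the levels of a run are a description. This run had 111 methylated of 890 reads in SKNO-1 (0.125, interval 0.105 to 0.148) against 908 of 983 in SKNO1-siAE (0.924, interval 0.905 to 0.939). Between 200 and 299 bp downstream the SKNO-1 level was 0 at all 8 sites, and from there it climbed in steps of 100 bp through 0.0973, 0.182, 0.329 and 0.548 to 0.777 at 700 to 799 bp, while SKNO1-siAE remained between 0.859 and 0.978. From -750 to -501 bp, the 8 sites of SFRP5 were methylated in both libraries, at 0.959 and 0.977. Between -500 bp and the start only 4 sites were shared, all of them lower in SKNO-1, at 0.420 against 1 over 3 sites and 0 against 1 at the remaining site, which was called lower. The site with the smallest adjusted p in SFRP5, at 99531383, had 0 of 15 methylated reads in SKNO-1 and 45 of 45 in SKNO1-siAE (2.23e-12, Fisher's exact test). On the other strand of that CpG, 9 of 25 and 22 of 22 reads were methylated.

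**Figure D3:**
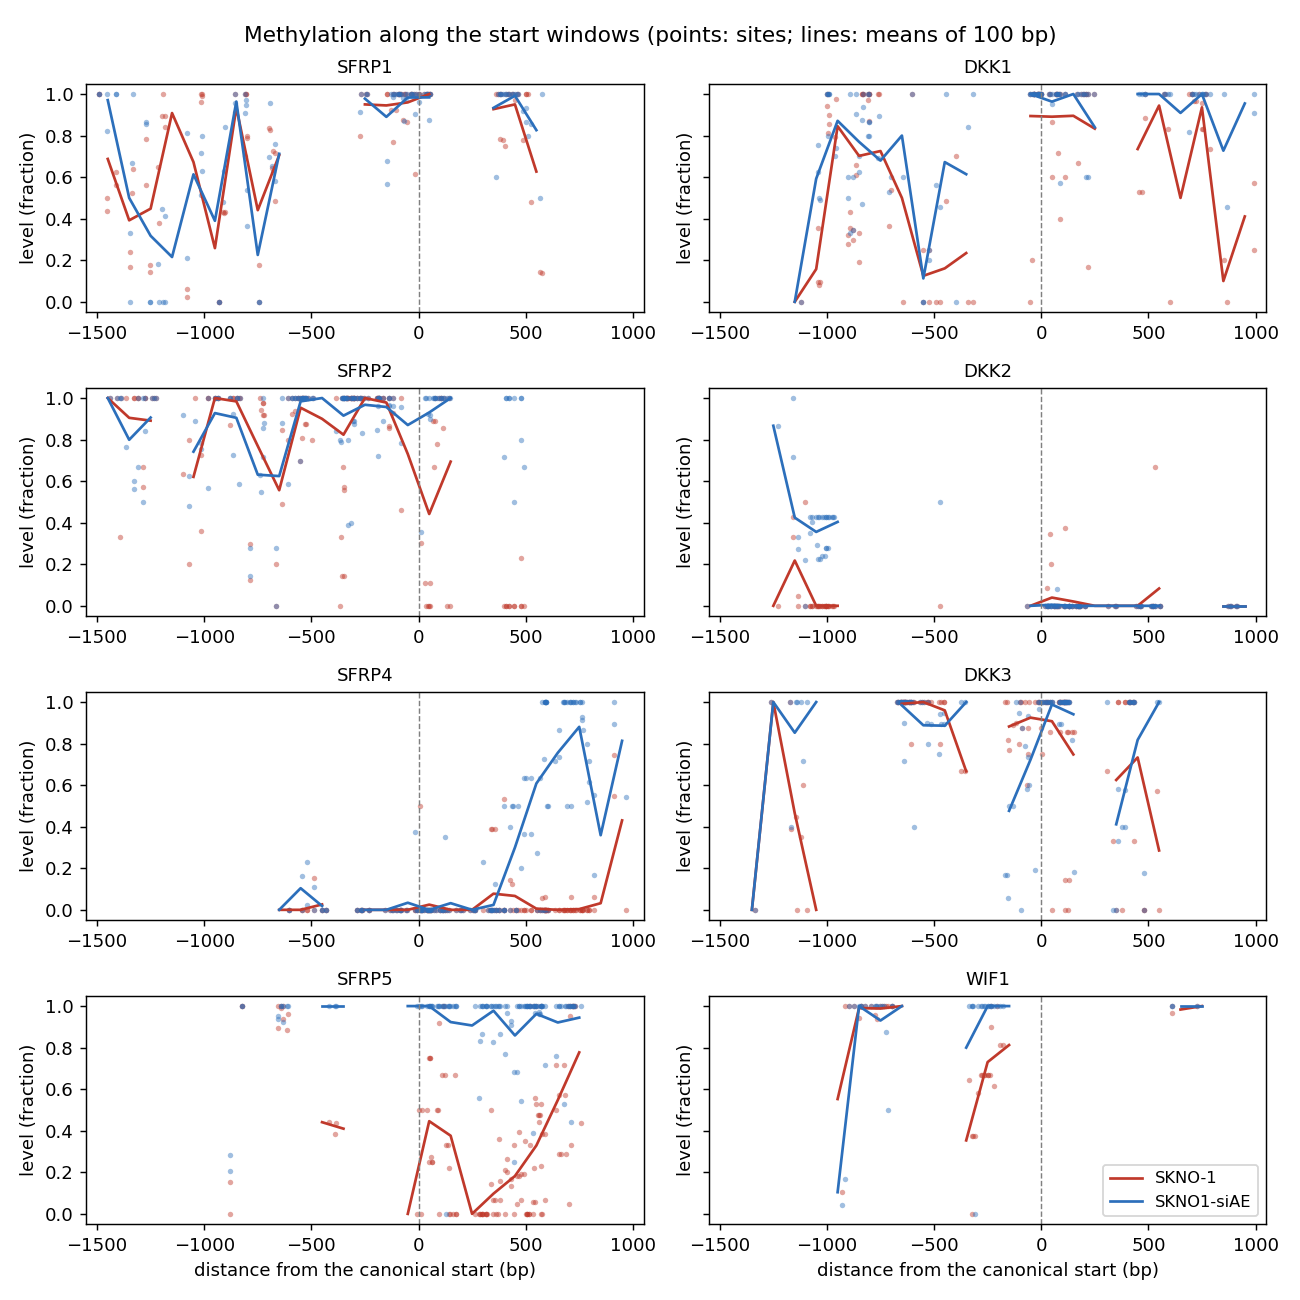
Level of each shared site (points, fraction) and means of 100 bp (lines) against the distance from the canonical start in bp, for SKNO-1 (red) and SKNO1-siAE (blue), in 8 panels. The lines part downstream of the start in SFRP5, SFRP4 and SFRP2, lie together near 0 around the start of DKK2, and lie together near 1 around the start of SFRP1.

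SFRP4 (ENSG00000106483, chromosome 7, - strand, start at 37956419), another frizzled-related Wnt-binding protein, was the least methylated of the 8 genes in SKNO-1. Its 155 sites averaged 0.0268 in SKNO-1 against 0.292 in SKNO1-siAE. Pooled, SKNO-1 had 93 methylated of 3370 reads (0.0276, interval 0.0226 to 0.0337), against 589 of 2527 in SKNO1-siAE (0.233, interval 0.217 to 0.250). A level under 0.1 was found at 145 sites in SKNO-1 and at 91 in SKNO1-siAE, and by Fisher's exact test 52 sites were called lower in SKNO-1 and 3 higher. Upstream, 36 sites stood at 0.00432 against 0.0251, and in the untranslated part of the first exon 37 sites stood at 0.0135 against 0.00954. In the coding part the levels were 0.0331 against 0.470 over 65 sites, and in the intron 0.0797 against 0.795 over 17 sites. The call of SFRP4 therefore rests on the sites more than 500 bp downstream, and its difference was -0.0296 with 500 bp on each side of the start.

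The SKNO1-siAE level of SFRP4 was 0.0237 between 300 and 399 bp downstream, 0.30 in the next 100 bp, then 0.608 and 0.756, and 0.881 between 700 and 799 bp. In SKNO-1 these 5 intervals had 0.0778, 0.0668, 0.00562, 0 and 0.00347. Farther downstream few sites were shared, with 0.0319 in SKNO-1 against 0.359 in SKNO1-siAE over 2 sites from 800 to 899 bp and 0.430 against 0.813 over 3 sites from 900 to 999 bp. The longest run of SFRP4, from 604 to 796 bp downstream, had 28 sites, 27 of them called, with 1 methylated read of 795 in SKNO-1 (0.00126, interval 0.000222 to 0.00709) against 347 of 409 in SKNO1-siAE (0.848, interval 0.810 to 0.880). Its site with the smallest adjusted p, at 37955727, had 0 of 37 and 15 of 15 methylated reads (2.17e-11, Fisher's exact test), and the other strand of that CpG had 0 of 16 and 5 of 10. The rest of the SFRP4 gene body showed no such difference in level, with 0.444 against 0.414 over 134 sites, 0 called lower and 7 called higher. The second annotated start of SFRP4, that of SFRP4-202, had 0 shared sites. The part of the SFRP4 window at the canonical start, which has all its shared sites, also lies within ENSG00000290149. This is a protein-coding gene annotated on the + strand, so the SFRP4 levels belong to both genes.

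SFRP2 (ENSG00000145423, chromosome 4, - strand, start at 154710235) binds Wnt ligands as the other frizzled-related proteins do. Its 155 sites averaged 0.774 in SKNO-1 against 0.897 in SKNO1-siAE, a difference of -0.123. Upstream of the start the means were close, 0.880 and 0.889 over 124 sites, with single sites differing both ways (8 called lower and 6 higher by Fisher's exact test). In the untranslated part of the first exon, 20 sites had 0.530 against 0.955, with 8 called lower by Fisher's exact test. In the coding part, 11 sites had 0.0210 against 0.880, with 10 called lower. The run from 146 to 490 bp downstream had 12 sites with 3 methylated of 115 reads in SKNO-1 (0.0261, interval 0.00891 to 0.0739) against 108 of 121 in SKNO1-siAE (0.893, interval 0.825 to 0.936). In the site with the smallest adjusted p, at 154709828, 0 of 11 and 21 of 21 reads were methylated (2.83e-07, Fisher's exact test), and 0 of 5 and 6 of 6 on the other strand. These exon sites of SFRP2 had low depth, a median of 5 reads in SKNO1-siAE for the untranslated part and 9 for the coding part. With a minimum of 10 reads per site, the difference of SFRP2 was 0.00510 in place of -0.123, and with 500 bp on each side of the start it was -0.235. Pooled reads gave -0.0730, with 1830 methylated of 2337 in SKNO-1 (0.783, interval 0.766 to 0.799) against 2522 of 2946 in SKNO1-siAE (0.856, interval 0.843 to 0.868). In the flank from 1.5 to 10 kb upstream, SFRP2 was higher in SKNO-1, at 0.907 against 0.781 over 87 sites, with 13 sites called higher and 3 lower.

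SFRP1 (ENSG00000104332, chromosome 8, - strand, start at 41166992), the remaining frizzled-related gene, had mean levels of 0.752 in SKNO-1 against 0.770 in SKNO1-siAE over 118 sites. Pooled reads gave a larger difference (-0.0761), with 2005 methylated of 2784 (0.720, interval 0.703 to 0.737) against 2556 of 3210 (0.796, interval 0.782 to 0.810). By Fisher's exact test, 8 sites were called lower in SKNO-1 and 10 higher. Around the start, from -250 to -1 bp, 25 sites had 0.959 and 0.958, and the untranslated part of the first exon had 1 and 0.984 over 10 sites. Farther upstream SFRP1 was less even: from -1250 to -1001 bp, 12 sites had 0.725 in SKNO-1 against 0.394 in SKNO1-siAE, with 8 called higher and 1 lower. The site called lower there had the smallest adjusted p of all 8 genes. At this site, 41168073, methylated reads were 2 of 88 in SKNO-1 against 39 of 48 in SKNO1-siAE (2.93e-20, Fisher's exact test). The strands of that CpG did not match in SKNO1-siAE, since 11 of 52 reads were methylated on the other one, against 4 of 67 in SKNO-1. The intronic start of SFRP1-202 had 12 sites at 0.429 against 0.626, with 2 called lower.

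WIF1 (ENSG00000156076, chromosome 12, - strand, start at 65515085), which binds Wnt ligands through its WIF domain, was the least covered of the 8 genes, with 41 shared sites, 14.3% of the CpG cytosines of its window. Its sites averaged 0.806 in SKNO-1 against 0.917 in SKNO1-siAE, and by Fisher's exact test 1 site was called lower and 1 higher. Pooled, SKNO-1 had 489 methylated of 590 reads (0.829, interval 0.796 to 0.857), against 427 of 482 in SKNO1-siAE (0.886, interval 0.854 to 0.911). The 10 sites from -500 to -251 bp averaged 0.502 against 0.90, while from -1000 to -751 bp 13 sites had 0.918 against 0.862. No shared site lay between the start and 500 bp downstream. The site called higher in SKNO-1, at 65516002, was methylated in 19 of 19 reads there against 4 of 24 in SKNO1-siAE (5.58e-07, Fisher's exact test). The start of WIF1-202 had 0 shared sites. The difference of WIF1, -0.110, was 0.0437 with a minimum of 10 reads per site and -0.267 with 500 bp on each side of the start. Its sign also differed by strand, with 0.0714 over the 19 sites of the + strand and -0.267 over the 22 of the - strand. Strand cannot be told apart from position here, since only 2 CpG dinucleotides had both strands. By position, the bins from -1000 to -501 bp differed by 0.0563 and 0.104 and those from -500 to -1 bp by -0.398 and -0.207.

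**Figure D4:**
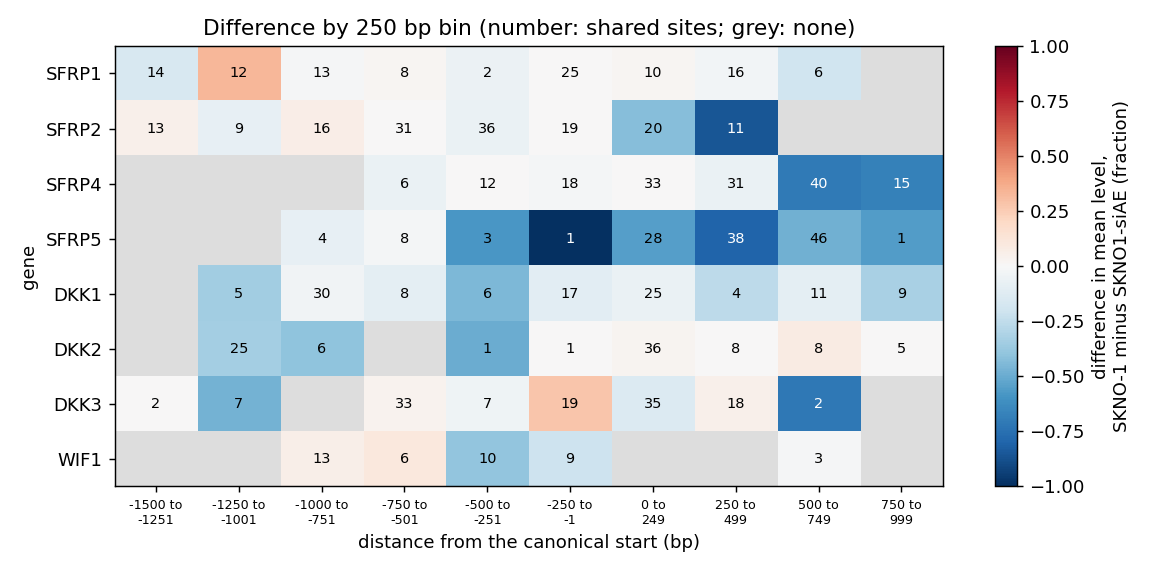
Difference in mean level (SKNO-1 minus SKNO1-siAE, fraction) of each gene in bins of 250 bp from the canonical start, with the number of shared sites in each bin and grey where there was none. Among bins of at least 10 sites, the deepest blue ones, lower in SKNO-1, are 250 to 499 bp in SFRP2 (-0.859) and SFRP5 (-0.800) and 500 to 749 bp in SFRP4 (-0.710), single bins of few sites such as DKK3 from 500 bp (2 sites, -0.714) are as deep, and the deepest red bins are at -1250 to -1001 bp of SFRP1 (0.331) and -250 to -1 bp of DKK3 (0.277).

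DKK1 (ENSG00000107984, chromosome 10, + strand, start at 54074041), which blocks the co-receptors LRP5 and LRP6, had 115 sites that averaged 0.717 in SKNO-1 against 0.847 in SKNO1-siAE. Methylated reads made up 1612 of 2278 in SKNO-1 (0.708, interval 0.689 to 0.726) against 1587 of 1887 in SKNO1-siAE (0.841, interval 0.824 to 0.857). The difference of DKK1, -0.130, was -0.0653 when each library used its own sites. By Fisher's exact test 16 sites were called lower in SKNO-1 and 3 higher. The start itself was methylated in both, at 0.894 and 1 over the 17 sites from -250 to -1 bp and at 0.881 and 0.949 over the 25 sites of the first 250 bp downstream. The larger differences of DKK1 lay on either side. From -500 to -251 bp, 6 sites had 0.198 against 0.643, with 5 called lower and 1 higher, and the intronic sites had 0.566 against 0.947 over 12 sites. The site with the smallest adjusted p, at 54073723, had 0 of 12 and 17 of 17 methylated reads (6.39e-07, Fisher's exact test), and its other strand was not a shared site. In the rest of the gene body, 14 sites had 0.193 against 0.623, and 1.5 to 10 kb upstream 39 sites had 0.567 against 0.747, with 13 called lower. The DKK1 start window overlaps PRKG1-AS1, a long non-coding RNA gene on the opposite strand.

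DKK2 (ENSG00000155011, chromosome 4, - strand, start at 107957470), a Dickkopf protein that also binds LRP6, was with SFRP4 the other gene of low level. Its 93 sites averaged 0.0629 in SKNO-1 against 0.169 in SKNO1-siAE, and pooled reads gave 88 of 1225 (0.0718, interval 0.0587 to 0.0877) and 347 of 2211 (0.157, interval 0.142 to 0.173). By Fisher's exact test 3 sites were called lower in SKNO-1 and 2 higher. In the untranslated exon part of DKK2, 52 sites had 0.0322 against 0.00154, and all 5 sites of the coding part were at 0 in both. The difference of DKK2, -0.106 over the whole window, was -0.0570 with at least 10 reads per site. It lay upstream, and it was -0.334 with the upstream 1500 bp alone. In the run from -1102 to -966 bp, whose sequence is shown above, SKNO-1 had 0 methylated of 248 reads (interval 0 to 0.0153), against 139 of 446 in SKNO1-siAE (0.312, interval 0.270 to 0.356). Of its 25 sites, 2 were called by Fisher's exact test. At the 2 annotated starts farther upstream, DKK2-204 and DKK2-202, the same 3 sites were methylated in both libraries, at 0.956 and 0.968. This part of the DKK2 window overlaps ENSG00000251081, a long non-coding RNA gene on the + strand. Elsewhere in the gene body of DKK2, 80 sites had 0.483 against 0.677, with 15 called lower and 1 higher.

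DKK3 (ENSG00000050165, chromosome 11, - strand, start at 12030173) is annotated with 7 protein-coding starts within the same region. It was methylated in both libraries, with mean levels of 0.829 and 0.849 over 123 sites. Methylated reads made up 710 of 898 in SKNO-1 (0.791, interval 0.763 to 0.816) against 1372 of 1625 in SKNO1-siAE (0.844, interval 0.826 to 0.861). By Fisher's exact test 10 sites were called lower in SKNO-1 and 5 higher. The differences along the DKK3 window went both ways. Directly upstream, from -250 to -1 bp, 19 sites had 0.909 in SKNO-1 against 0.632 in SKNO1-siAE, with 5 called higher, whereas the 35 sites of the first 250 bp downstream had 0.830 against 0.965, with 5 called lower. From -1250 to -1001 bp, 7 sites had 0.398 against 0.873. There, at 12031314, 0 of 23 and 14 of 14 reads were methylated (8.78e-09, Fisher's exact test), and the other strand of that CpG had 4 of 9 and 6 of 6. With a median of 7 reads per site in SKNO-1, DKK3 was the shallowest of the 8 genes.

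SFRP2, DKK2 and DKK3 lie in stretches of the genome where SKNO-1 had fewer reads. In bins of 5 Mb, the log2 ratio of the reads of SKNO-1 to those of SKNO1-siAE, each as a share of its library, was -1.02 at SFRP2, -0.94 at DKK2 and -1.01 at DKK3. At the other 5 genes it lay between 0.01 and 0.07. Over the shared sites of the windows themselves the split was less clear, with -0.36 at SFRP2, -0.88 at DKK2 and DKK3, -0.23 at SFRP1 and up to 0.39 at SFRP4. The part of this read ratio in the differences of SFRP2, DKK2 and DKK3 was not tested. The genes with the 2 largest differences, SFRP5 and SFRP4, were at 0.07 and 0.06 in the 5 Mb bins.

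The strands of a CpG were compared as a measure of the technical spread within a library, which does not give the spread between libraries of 1 line. In SFRP5, the 37 CpG dinucleotides with both strands measured differed between strands by a mean of 0.181 in SKNO-1 and 0.0929 in SKNO1-siAE, regardless of sign, and between libraries by 0.618. In SFRP4 the mean gaps between strands were 0.0372 and 0.165 over 51 CpG dinucleotides, and that between libraries was 0.371. In SFRP2 the gaps were 0.113 and 0.117 against 0.197 over 57, and in DKK2 0.0570 and 0.0638 against 0.162 over 33. In DKK3 the SKNO-1 strands differed from each other by 0.223 over 31 CpG dinucleotides, more than the libraries did (0.153). In DKK1 the gaps were 0.150 and 0.0881 against 0.167 over 37, and in SFRP1 0.0862 and 0.166 against 0.250 over 23. WIF1 had only 2 such CpG dinucleotides.

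The fusion keeps the DNA-binding domain of RUNX1. TGTGGT is a sequence that RUNX1 recognises, and only these exact bases were searched, without variants. This motif, searched on both strands in the 2501 bp from -1500 to +1000 of the canonical start, occurred in 4 of the 8 genes (50%) and in 71.2% of the 19478 canonical windows of protein-coding genes. It was found once in SFRP5, at -1065 bp, and 4 times in SFRP4, at -780, -568, 419 and 626 bp, the last of these within the run of differing sites. SFRP1 had it at -1360 and -1038 bp and DKK3 at 605 bp. SFRP2, DKK1, DKK2 and WIF1 had no match in this window. A match is only a match of letters, and binding was not measured in these files. Other sequences that RUNX1 binds would be missed, so a window without a match may still have a binding site.

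Of 68 other genes of the Wnt pathway, chosen from textbook membership and without the frizzled receptors, 67 had at least 5 shared sites. In 18 of them (26.9%) the window was lower in SKNO-1 by at least 0.2, and in 2 (2.99%) it was higher, against 14.1% and 2.82% of all measured genes. The median difference of these genes was -0.0686, beside -0.117 for the secreted antagonists (which moved with the sites used, as given above), and 32 were at 0.5 or more in both libraries, a level found in 33.4% of all measured genes. Among the ligands, 7 of 19 were lower by at least 0.2, with a median of -0.157, WNT9A (-0.617) and WNT4 (-0.482) leading. Of the 10 other extracellular or cell-surface inhibitors, 2 were lower by that much, with a median of -0.0133. Close to the antagonists in function, the DKK receptor gene KREMEN1 differed by -0.602 (0.0614 against 0.664), and the DKK target LRP6 by -0.442 (0.0901 against 0.532). The DKK target LRP5 had similar levels (0.512 against 0.506), and the DKK receptor gene KREMEN2 had 0 shared sites. Of the 5 co-receptors and receptors other than frizzleds, 1 was lower by at least 0.2, with a median of -0.0213. The R-spondin axis acts on the number of Wnt receptors at the cell surface. Of its 9 genes, 2 were lower by at least 0.2 and 1 was higher, with a median of -0.0686. Among them LGR5 was lower (-0.575) and LGR4 higher in SKNO-1 (0.367). Of the 21 intracellular genes, 5 were lower by at least 0.2, among them NKD2 (-0.793), a binding partner of Dishevelled, LEF1 (-0.613), a transcription factor that acts with beta-catenin, and DACT1 (-0.410). The other gene that was higher in SKNO-1 was WLS (0.307), which carries Wnt ligands to the cell surface.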

How the data were processed

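DNA methylation was measured by MCC-Seq in 1 library each of SKNO-1 and SKNO1-siAE. After capture with SeqCap Epi probes and sequencing of both ends (125-bp reads), the authors aligned the reads to hg19 with BSMAP (2.73 per the labels) and deposited unnormalised counts of methylated and unmethylated reads for each CpG cytosine and strand with at least 5 reads. The submitters' processing notes name cutadapt 1.4.2, whereas the study's methods name a Perl script for trimming. The study's methods took calls from unique sequences, and whether that step removed PCR duplicates is not given in the sources used here.

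A site's level was computed as methylated over all reads, and only sites read at least 5 times in each library were kept. Transcript starts came from GENCODE release 44 lifted to GRCh37. A gene's value was the mean level over its start window, compared with all genes with at least 5 shared sites and called at a difference of at least 0.2, as no test is possible between single libraries. Single sites were compared by a 2-sided Fisher's exact test (Benjamini-Hochberg over all shared sites). Runs were at least 5 consecutive sites, at most 300 bp apart, each differing by at least 0.2 in one direction. Pooled shares have 95% Wilson intervals. The scripts were tested on simulated data.

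The 8 genes and the list of other pathway genes were chosen with earlier results of these data known. The text names all 8, the site with the smallest p in each of the 8, and the pathway genes past 0.2 (at most the 8 largest each way). LRP5 and KREMEN2 are named beside LRP6 and KREMEN1. It also shows 3 stretches of sequence chosen within their genes by the number of shared sites. Their genes were taken by window difference, as those past 0.2 and, with chromosome 8 left out, the gene with the smallest difference. The other 4 stretches, from runs, were chosen after their values were seen. Runs, levels by place, strands, flanks and the 0.5 level were added after the data were seen. Alternatives were merged strands, at least 10 reads, each library's own sites, pooled reads, other windows, other differences and other adjustments. Tools were samtools 1.23.1, matplotlib 3.10.9, pysam 0.24.0, numba 0.67.0, pandas 2.3.3, scipy 1.17.1, numpy 2.4.6 and python 3.11.15.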

Additional observations from a re-analysis of the deposited data

Results flagged for a closer look

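Sites of the 8 genes with at least 5 reads in only one library enter no comparison, and their methylated reads are given as values only. A share of this size lies above the limit of a count of 0 whatever its source, so that limit tests nothing about these sites. The 229 sites measured in SKNO-1 alone had 1625 methylated of 2219 reads, a share of 0.732 (95% Wilson interval 0.714 to 0.750), beside a limit of 0.00135. The 413 sites measured in SKNO1-siAE alone had 3071 of 4416, a share of 0.695 (interval 0.682 to 0.709), beside a limit of 0.000679. These are different sites, so the shares were not compared with each other.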

How the results depend on the processing

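Of 105 values recomputed under the alternatives, 67 were close to those reported and 38 moved. Of the 56 recomputed differences of single genes, 49 were under 0, as reported, and 7 over 0, in DKK3, SFRP1, DKK2, SFRP2 and WIF1, none of which was past 0.2. With 1 library per line, no library could be left out. No paired analysis was possible because each line has 1 library. The number of the 8 genes lower in SKNO-1 was 6 at a difference of at least 0.1 and 1 at 0.3, in place of 2 (all measured genes 25.3% and 8.57%, in place of 14.1%). Bonferroni adjustment left 43 sites lower and 3 higher, both of 929 (2.28% and 0.669% of all shared sites), and at least 10 reads per site gave 117 lower and 26 higher of the 494 sites left (13.6% and 5.35% of all such sites). The median difference of the 8 genes, -0.117, became -0.0668 with the upstream 1500 bp only, -0.0844 with 500 bp on each side, -0.0297 with at least 10 reads and -0.0806 with pooled reads. SFRP5 kept a difference of at least 0.2 in size under each window tried (-0.201 with the upstream part only, -0.694 with 500 bp on each side). SFRP4 lost it, at -0.0207 and -0.0296, whereas DKK2 was at -0.334 with the upstream part only, and SFRP2 (-0.235) and WIF1 (-0.267) passed 0.2 with 500 bp on each side. At these depths a single site resolves only large differences. The 25-site run of DKK2 is an example, with 2 calls. The causes were not tested.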
